A study of Mus musculus with 18 samples.

Results

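The matrix proteases and their inhibitors described here are 10 genes of the 54838 in the count table: the matrix metalloproteinases Mmp2, Mmp3, Mmp14 and Mmp15, the tissue inhibitors of metalloproteinases Timp2, Timp3 and Timp4, and the proteases Adamts1, Adamts5 and Adamts20. They were taken by name with earlier results of these data known, and Adamts20 was selected on its higher levels with TNF than without, so for that gene the values it was chosen by are given as a description without a test. Sequencing of rRNA-depleted total RNA gave 18 mouse libraries in 6 conditions, each with 3 replicates. Proliferating neurospheres (NSPs) were free-floating neural stem cell cultures kept with 20 ng/ml EGF. The other 5 conditions were NSPs placed in medium with 10% serum, which turns them towards astrocytes, for 24 h, for 24 h with TNF, for 72 h, for 72 h with TNF and for 1 week, where TNF was the inflammatory cytokine tumour necrosis factor at 50 ng/ml. All cells came from the ventricular zone of wild type C57BL/6J embryos at day 14, with NSCs isolated from single brains. The labels do not say which libraries share a brain or a culture, so p-values measure the spread between these libraries.

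Matrix metalloproteinases (MMPs) are zinc enzymes that cut collagens, proteoglycans and other proteins outside the cell. Some are secreted as inactive precursors, such as Mmp2 (gelatinase A) and Mmp3 (stromelysin), and others sit in the cell membrane, such as Mmp14 and Mmp15. The secreted ADAMTS enzymes Adamts1 and Adamts5 cut the large proteoglycans of the brain matrix, such as versican, and Adamts20 is also linked to versican cleavage. TIMPs bind the active site of these enzymes, and Timp2 can also take part with Mmp14 in activating the Mmp2 precursor.

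Levels are given in CPM, the counts scaled to the size of each library after TMM normalization, and a level per length is CPM per kb of exon. A gene is called where the adjusted p of edgeR's quasi-likelihood test, with Benjamini-Hochberg adjustment over the 20067 genes that passed the filter on low counts, was under 0.05, and fold changes are on the log2 scale with their SE. Of the 10 genes, 9 passed the filter and Mmp3 did not. Any comparison that held a library at 24 h or 72 h, with or without TNF, could share the values by which Adamts20 was noted, so it was tested in the comparison of 1 week with NSPs and is left out of the counts of the other comparisons, which hold 8 tested genes.

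Total counts per library were between 12509693 and 22549627 with a median of 16794798. In 24 h TNF replicate 1 and 72 h TNF replicate 1, 9.64% and 8.54% of the tested genes lay more than 2-fold from the mean of the other libraries of their group, against 3.19% to 4.24% in the remaining TNF libraries. The share was also 11.5% in NSP replicate 1 and 7.17% in 72 h replicate 1, and between 1.44% and 4.77% elsewhere. By the mean Pearson's r of log2 CPM with the libraries of a group, 24 h TNF replicate 3 was slightly nearer to the untreated 24 h group (0.9824) than to its own (0.9821), and each of the other libraries was nearest to its own. Of 8 astrocyte markers, all were at 1 CPM or more in every condition, NSPs included. Of 7 microglia markers C1qa was at 0 in every library and the summed level was at most 3.8 CPM. Of 6 fibroblast and meninges markers, Lum was at 0 in every library and the summed level was 2.7 to 20.6 CPM. In these bulk samples fewer cells of a type and less RNA per cell cannot be told apart.

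**Figure D1:**
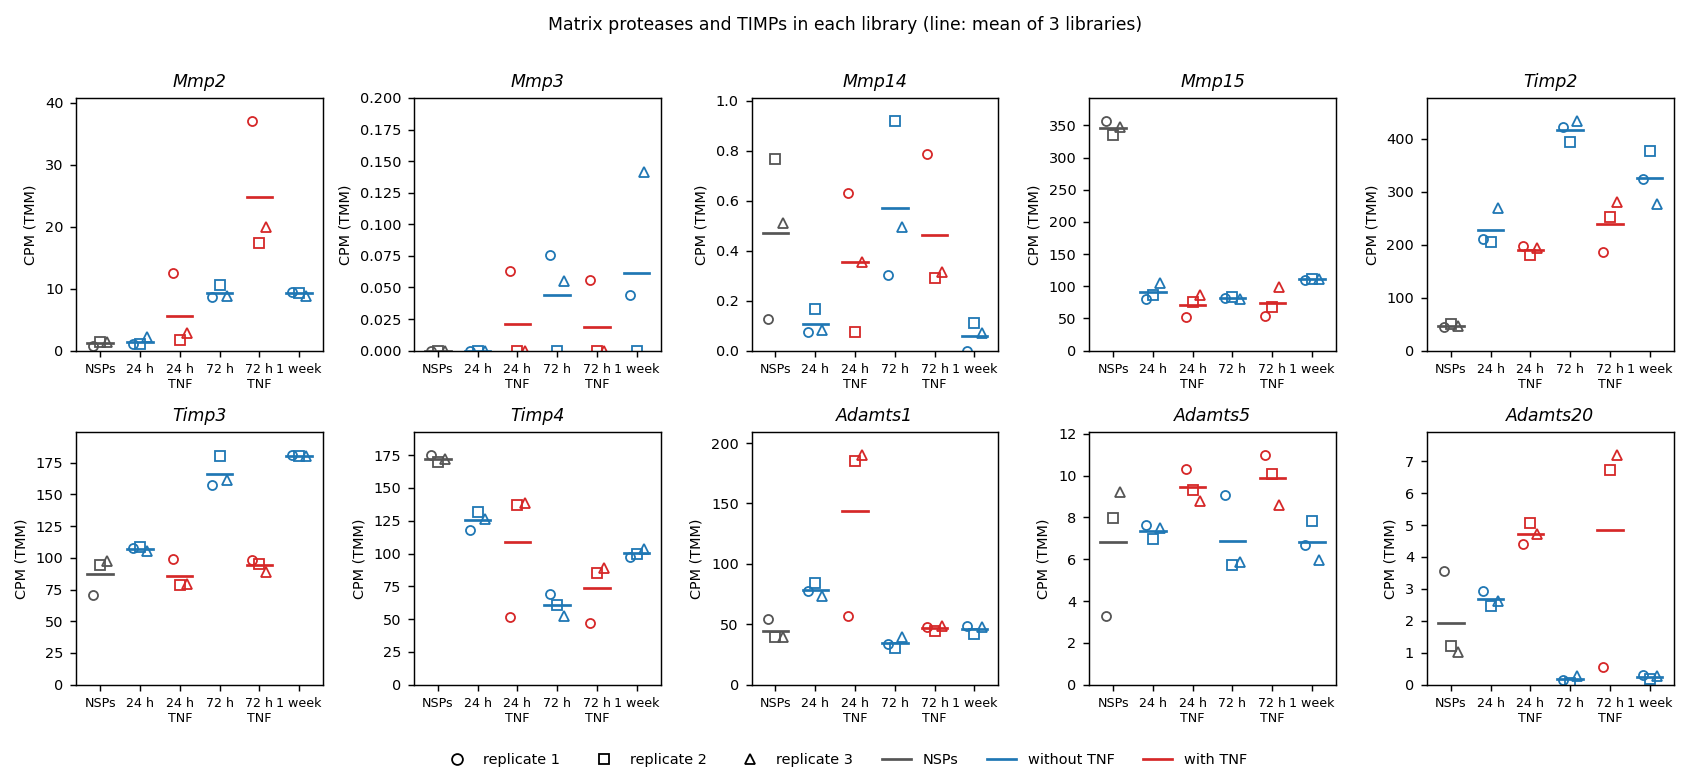
CPM after TMM normalization (linear axis from 0, a scale of its own for each gene) of the 10 genes in the 6 conditions, with 1 symbol per library, shaped by replicate, and a line at the mean of 3 libraries. Timp2 is high in every differentiating library, Mmp15 is high in NSPs, and replicate 1 of the TNF groups (red circles) lies away from replicates 2 and 3 for Mmp2, Timp4, Adamts1 at 24 h and Adamts20 at 72 h.

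Mmp15, a membrane-type MMP (ENSMUSG00000031790, chr8:95352268-95375080 on the plus strand of GRCm38), was the most abundant of the 10 genes per length in NSPs, at 64.1 ± 2.05 CPM per kb (SD, n = 3). Its level was 357, 335 and 347 CPM in the 3 NSP libraries and 80.0, 85.8 and 105 CPM in those at 24 h. It fell 3.83-fold in the first 24 h (log2 fold change -1.94, SE 0.19, adjusted p = 1.62e-07), and the 2 groups did not overlap. At 72 h it was at 81.2, 83.9 and 80.2 CPM, and at 1 week at 109, 111.4 and 111.3 CPM, where it was still 3.13-fold lower than in NSPs (log2 fold change -1.65, SE 0.19, adjusted p = 5.02e-07). Among 23 MMP genes it held 86.3% ± 2.56 of the CPM per kb in NSPs and 57.9% ± 2.36 after 24 h, 44.7% ± 2.57 after 72 h and 60.1% ± 0.941 after 1 week (SD, n = 3). The stretch of its promoter with a GC box (letters GGGCGG on either strand), which was found in 35.7% of 32851 mouse promoters, is shown because Mmp15 had the highest level of the 7 proteases per length in NSPs. The RefSeq promoters, 250 bases before to 50 bases after a gene's start on GRCm38.p6, held 8 of the 10 genes, and Mmp2 and Adamts5 were not among them. Capitals mark the match, at position -106 from the start, on the plus strand of chr8:95352160-95352225.
Mmp15: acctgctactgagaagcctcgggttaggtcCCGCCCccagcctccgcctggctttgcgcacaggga

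Mmp2 (ENSMUSG00000031740, chr8:92827291-92853420, plus strand), which cuts denatured and basement membrane collagens, came up between 24 h and 72 h. It was at 0.698, 1.43 and 1.36 CPM in NSPs and 1.13, 1.06 and 2.2 CPM at 24 h, and at 8.63, 10.6 and 8.75 CPM at 72 h, then 9.45, 9.37 and 8.87 CPM at 1 week. It rose 6.47-fold from 24 h to 72 h (log2 fold change 2.69, SE 0.55, adjusted p = 0.00137) and was 7.82-fold higher at 1 week than in NSPs (2.97, SE 0.55, adjusted p = 0.000152). Between 72 h and 1 week the log2 difference was -0.01 (SE 0.46, adjusted p = 0.995). Its share of MMP transcripts per length was 1.48% ± 0.481 at 24 h, 8.11% ± 0.286 at 72 h and 8.03% ± 0.272 at 1 week (SD, n = 3). The fibroblast and meninges markers summed to 4.76 to 6.93 CPM at 24 h and 2.7 to 4.17 CPM at 72 h, and the ependymal markers to 81.8 to 95.8 and 224.3 to 314.6 CPM. Most of the ependymal sum was Foxj1, at 79.35 to 93.43 CPM at 24 h and 213.79 to 302.9 at 72 h. The part of these markers in the Mmp2 level was not tested.

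Mmp14 (ENSMUSG00000000957, chr14:54431612-54445364, plus strand), a membrane-type MMP that activates the Mmp2 precursor, was near the limit of detection. It had 2, 14 and 9 counts in NSPs, 1, 3 and 1 at 24 h, 4, 15 and 9 at 72 h and 0, 2 and 1 at 1 week, and no library exceeded 0.92 CPM. The first 24 h gave a log2 fold change of -2.0 that was not called (SE 0.83, adjusted p = 0.0519). It was called with RLE normalization (-2.02, adjusted p = 0.0483) and without NSP replicate 1 (-2.42, adjusted p = 0.0182). The test called Mmp14 higher at 72 h than at 24 h (log2 fold change 2.27, SE 0.82, adjusted p = 0.0493), lower at 1 week than at 72 h (-3.24, SE 0.88, adjusted p = 0.032) and lower at 1 week than in NSPs (-2.96, SE 0.9, adjusted p = 0.00887). With 0 to 3 counts per library in 1 of the 2 groups, these fitted values depend on single reads and on the prior. The first call was lost without 24 h replicate 1, 2 or 3 or 72 h replicate 2 or 3 (adjusted p from 0.0793 to 0.219), and the second without 72 h replicate 2 or 3 or any 1 week library (0.0604 to 0.18), with a log2 fold change of -2.56 without 1 week replicate 1 and -4.06 without 1 week replicate 2. Without NSP replicate 2 (0.0549) or 1 week replicate 1 (0.05) the third was lost too, and without 1 week replicate 1 or 2 it was -2.28 or -3.79 on the log2 scale.

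Mmp3 (ENSMUSG00000043613, chr9:7445822-7455975, plus strand), which cuts many matrix proteins and activates other MMP precursors, had 0 counts in every NSP and 24 h library. A count of 0 allows up to 3 counts. By total counts without TMM normalization, unlike the other CPM values, this is 0.158 to 0.24 CPM in these 6 libraries. The other 12 libraries held 0 to 2 counts, with 1 count in 24 h TNF replicate 1 and in 72 h TNF replicate 1. It was not detectable at this depth in most libraries and no comparison was made.

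Among the 3 ADAMTS enzymes, Adamts1 (ENSMUSG00000022893, chr16:85793827-85803113, minus strand) was the most abundant at every time. Without TNF it went up and then down. It was at 54.1, 39.8 and 39.6 CPM in NSPs, 77.8, 84.4 and 73.3 CPM at 24 h, 34.0, 30.7 and 39.4 CPM at 72 h and 48.3, 41.9 and 48.0 CPM at 1 week. The rise over the first 24 h was 1.76-fold (log2 fold change 0.82, SE 0.28, adjusted p = 0.0204) and was not called without NSP replicate 2 (0.74, adjusted p = 0.0697) or NSP replicate 3 (0.74, adjusted p = 0.0711). From 24 h to 72 h it fell 2.26-fold (log2 fold change -1.18, SE 0.28, adjusted p = 0.00477). The last bases of its RefSeq promoter before the start are shown because Adamts1 was the most abundant of the 3 ADAMTS genes. Capitals mark a TATA box (letters TATAAA, either strand, in 13.6% of promoters) at position -32, on the minus strand of chr16:85803114-85803175, which is followed within the same stretch by a GC box in lower case.
Adamts1: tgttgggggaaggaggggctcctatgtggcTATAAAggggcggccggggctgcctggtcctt

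Adamts5 (ENSMUSG00000022894, chr16:85856173-85901828, minus strand), an aggrecan-cleaving enzyme whose gene lies beside Adamts1, kept to a narrow range. Its group means without TNF were 6.83 ± 3.12 CPM in NSPs, then 7.37 ± 0.339 after 24 h, 6.89 ± 1.9 after 72 h and 6.83 ± 0.936 after 1 week (SD, n = 3), and no comparison called it. The widest spread was within NSPs, where replicate 1 was at 3.3 CPM and the others at 7.96 and 9.22 CPM.

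Adamts20 (ENSMUSG00000022449, chr15:94270163-94465418, minus strand), an enzyme needed for melanoblast survival in the embryo, was low without TNF and lowest late. It was at 3.55, 1.21 and 1.02 CPM in NSPs, 2.95, 2.46 and 2.61 CPM at 24 h, 0.151, 0.061 and 0.275 CPM at 72 h and 0.309, 0.164 and 0.282 CPM at 1 week. The 72 h values rest on 2, 1 and 5 counts. At 1 week it was 7.33-fold lower than in NSPs (log2 fold change -2.87, SE 0.77, adjusted p = 0.00371), and without NSP replicate 1 the log2 fold change was -2.11 (adjusted p = 0.0371). Its RefSeq promoter lies 61068 bases inside the GENCODE gene model and was 76.4% G and C over the 250 bases before the start, the highest of the 8 promoters, with 32 CpG. The stretch is shown because Adamts20 was chosen for its levels with TNF. Capitals mark a match to the NF-kB motif, found on either strand in 8.46% of promoters and among these 8 genes in Adamts20 alone, at position -167, on the minus strand of chr15:94404478-94404547.
Adamts20: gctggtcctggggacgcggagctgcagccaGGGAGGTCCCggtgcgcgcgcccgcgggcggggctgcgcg

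The AP-1 motif, with letters TGANTCA, was found in 7.81% of promoters and among the 8 genes in Mmp3 alone, at position -46 on the plus strand of chr9:7445746-7445812. Mmp3 was barely detected here, so the stretch is shown only beside those of the expressed genes.
Mmp3: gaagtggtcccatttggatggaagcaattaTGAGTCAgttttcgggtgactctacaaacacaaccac
A match in these letters is a description and not a binding site, and the RNA values do not bear on it.

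**Figure D2:**
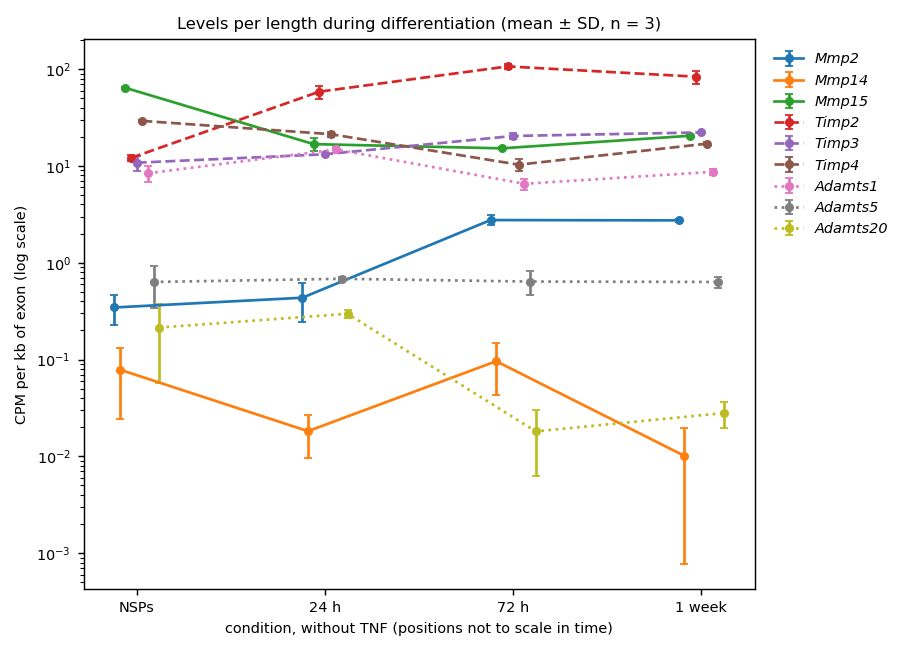
Level per length (CPM per kb of exon, log axis, mean ± SD of 3 libraries) of the 9 genes that passed the filter, in NSPs and in cells differentiated without TNF. Timp2 goes from 12.1 to 106.7 CPM per kb at 72 h and Mmp15 from 64.1 to 15.2, so that their order is exchanged.

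Timp2 (ENSMUSG00000017466, chr11:118301069-118355740, minus strand) showed the largest rise of the 3 inhibitors. It was at 44.3, 50.3 and 46.3 CPM in NSPs, 210.7, 204.3 and 268.6 CPM at 24 h, 420.9, 393.1 and 433 CPM at 72 h and 324, 376 and 276 CPM at 1 week. It rose 4.85-fold in the first 24 h (log2 fold change 2.28, SE 0.16, adjusted p = 2.7e-09) and a further 1.82-fold by 72 h (0.87, SE 0.15, adjusted p = 0.000325). The level at 1 week was 6.93-fold that of NSPs (log2 fold change 2.79, SE 0.16, adjusted p = 6.86e-11). It was the most abundant of the 10 genes per length in each differentiating condition, with 58.5 ± 9.08 CPM per kb at 24 h and 106.7 ± 5.27 at 72 h (SD, n = 3).

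Timp3 (ENSMUSG00000020044, chr10:86300372-86349506, plus strand), which binds to the matrix itself and inhibits ADAMTS and ADAM enzymes as well as MMPs, rose later and less. Its levels were 70.4, 94.6 and 97.7 CPM in NSPs, 107.8, 108.7 and 105.1 CPM at 24 h, 157, 180.2 and 161 CPM at 72 h and 181.1, 180.6 and 180.3 CPM at 1 week. The rise from 24 h to 72 h was 1.55-fold (log2 fold change 0.63, SE 0.12, adjusted p = 0.000996) and that from NSPs to 1 week 2.06-fold (1.04, SE 0.13, adjusted p = 1.09e-06). The first 24 h gave 0.29 (SE 0.12, adjusted p = 0.0571), which was called without NSP replicate 3 (0.37, adjusted p = 0.0363). Its exons share 1733 bases with Syn3 on the other strand, and the strand setting of the counting is not given, so reads of these genes may be mixed. Over all libraries Syn3 had 2539 counts and Timp3 35897.

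Timp4 (ENSMUSG00000030317, chr6:115241892-115252205, minus strand), an inhibitor typical of brain and heart, went the other way. It was at 175.1, 169.7 and 172.2 CPM in NSPs, 118.3, 131.9 and 126.3 CPM at 24 h, 69.2, 60.4 and 52.5 CPM at 72 h and 97.4, 99.5 and 103.4 CPM at 1 week. The first 24 h gave -0.46 (SE 0.26, adjusted p = 0.15), which was called in a fit of only the groups compared (-0.43, adjusted p = 0.00748). It fell 2.07-fold from 24 h to 72 h (log2 fold change -1.05, SE 0.27, adjusted p = 0.00686) and was 1.72-fold lower at 1 week than in NSPs (-0.78, SE 0.26, adjusted p = 0.0158). The 3 values at 1 week were all above those at 72 h, and this difference was not called (0.72, SE 0.26, adjusted p = 0.12). Timp4 lies inside Syn2, which is on the other strand and shares 90 exon bases with it. Over all libraries Syn2 had 34399 counts and Timp4 31423.

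Per length, the make-up of the TIMP transcripts turned over during differentiation. Timp4 held 55.8% ± 3.32 of the CPM per kb of the 4 TIMP genes in NSPs, then 22.8% ± 2.35 after 24 h, 7.49% ± 1.05 after 72 h and 13.9% ± 1.76 after 1 week (SD, n = 3). Timp2 held 23.0% ± 0.881, 62.1% ± 3.56, 77.5% ± 1.93 and 67.7% ± 3.49 in the same conditions. Timp3 kept between 14.1% and 20.4% at these 4 stages, and between 21.2% and 29.3% when the length of the longest transcript was used in place of all exons. With that length Timp4 still led in NSPs (49.9% ± 3.68) and Timp2 at 24 h, 72 h and 1 week (56.7% ± 3.79, 70.7% ± 2.29 and 60.5% ± 3.78). Timp1, the member of the family best known from reactive astrocytes and not among the 10 genes, was at 0.395 ± 0.244 CPM in NSPs, 0.867 ± 0.269 at 24 h and 0.169 ± 0.0694 at 72 h. It fell from 24 h to 72 h (log2 fold change -2.28, SE 0.67, adjusted p = 0.0167), a call that was lost without 24 h replicate 1 or 3 or 72 h replicate 3 (adjusted p from 0.0535 to 0.0789).

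**Figure D3:**
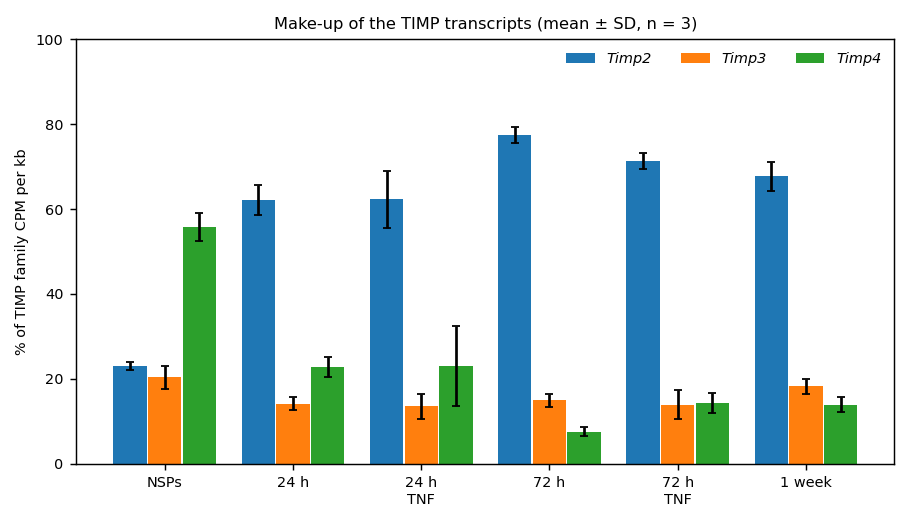
Share of each gene in the summed CPM per kb of the 4 TIMP genes (percent, mean ± SD of 3 libraries) in the 6 conditions, with Timp1 not drawn. Timp4 leads in NSPs with 55.8% and Timp2 in every differentiating condition, and the 3 libraries behind the wide bar of Timp4 at 24 h with TNF lie between 12.2% and 29.2%.

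Counted over the 8 tested genes, the first 24 h in serum gave 2 higher and 1 lower, where 27.2% of all tested genes were higher and 25.5% lower. From 24 h to 72 h, 4 were higher and 2 lower, against 12.2% and 12.6% of all genes. From 72 h to 1 week, 1 was lower and none higher, against 3.96% and 2.68%. DESeq2 also called 1 of the 8 in this step, and 4 had an unadjusted p under 0.05. Over all genes, 3872 of 20067 had an unadjusted p under 0.05 in this step, and DESeq2 called 1624. Over the whole course from NSPs to 1 week, with Adamts20 included, 3 of 9 were higher and 4 lower, against 29.6% and 29.1%. The median log2 fold change of the genes was 0.19, 0.26 and 0.06 in the 3 steps, beside 0.06, -0.01 and 0 for all tested genes. The summed level of 7 oligodendrocyte lineage markers, which include Olig1 and Olig2, went from 1060.5 to 1366 CPM in NSPs to 375.4 to 455.2 at 24 h, 82 to 91.7 at 72 h and 110.8 to 128.5 at 1 week. It was lower in the same step as Mmp15 in the first 24 h and as Timp4 from 24 h to 72 h, whereas Mmp15 in that second step had a log2 fold change of -0.14. The sum of 5 neural stem cell markers was lower in the first of these steps, from 2503.1 to 3718.7 CPM in NSPs to 966.5 to 1088 at 24 h, and was 970.7 to 1373.2 at 72 h. The sum of 4 ependymal markers was higher in the 2 steps in which Timp2 rose, of which the second was also that of Timp3 and Mmp2. It was 27.8 to 38.7 CPM in NSPs, 81.8 to 95.8 after 24 h, 224.3 to 314.6 after 72 h and 195.4 to 249.9 after 1 week. Most of this sum was Foxj1, at 18.85 to 32.78 CPM in NSPs and 79.35 to 93.43 after 24 h. Ccdc153 was also higher in both steps. Hydin was lower in the first step, from 5.33 to 8.31 CPM in NSPs to 0 to 0.23 at 24 h, and Tmem212 was at 0 without TNF. The sum of 6 pericyte and smooth muscle markers, higher in the first of these steps and lower in the second, was 4.55 to 11.1 CPM in NSPs, 403.9 to 495.9 after 24 h, 198.4 to 294.7 after 72 h and 325.7 to 409.9 after 1 week. The sum of 8 astrocyte markers was 5128.1 to 5363.6 CPM in NSPs, 5323.9 to 5789.4 after 24 h and 5696.2 to 8144.7 after 72 h, and lower at 1 week with 2683.3 to 3247.4. The part of these cell types in the levels of the proteases and TIMPs was not tested.

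Exposure to TNF for 24 h called none of the 8 tested genes with edgeR's quasi-likelihood test, where 2.18% of all tested genes were higher and 1.32% lower. Of the 8, 3 had an unadjusted p under 0.05 (Mmp2, Adamts1 and Timp3) and DESeq2 called 1, Mmp2. Over all genes, 2761 of 20067 had an unadjusted p under 0.05, and DESeq2 called 533 higher and 368 lower of 37635. Mmp2 was at 12.5, 1.64 and 2.83 CPM with TNF against 1.13, 1.06 and 2.2 CPM without. The high value was in replicate 1 alone and the groups overlapped. The log2 fold change was 1.98 (SE 0.56, adjusted p = 0.0591). It passed the threshold without TNF replicate 2 (2.4, adjusted p = 0.0119) or 3 (2.31, adjusted p = 0.0275), which leave replicate 1 in, and was 0.64 (adjusted p = 0.619) without replicate 1.

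Adamts1 at 24 h showed the opposite pattern, with 56.6 CPM in TNF replicate 1 and 185.2 and 190.1 CPM in replicates 2 and 3, against 73.3 to 84.4 CPM without TNF. Replicates 2 and 3 were above every untreated library and replicate 1 was below them. The log2 fold change was 0.87 (SE 0.28, adjusted p = 0.105) with all libraries and 1.24 (adjusted p = 3.46e-05) without TNF replicate 1. Timp4 split in the same way, at 51.8 CPM in TNF replicate 1 and 136.8 and 138.5 CPM in the others, against 118.3 to 131.9 CPM without TNF, and was not called (-0.2, SE 0.26, adjusted p = 0.82).

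Timp2 and Timp3 were already on the low side at 24 h with TNF. Timp2 was at 196.5, 179.4 and 193.8 CPM and Timp3 at 98.9, 78.3 and 79.4 CPM, each below all 3 untreated libraries. Neither difference was called (Timp2 -0.26, SE 0.15, adjusted p = 0.487, and Timp3 -0.33, SE 0.13, adjusted p = 0.207). Mmp15 was at 52.2, 75.7 and 86.5 CPM (-0.34, SE 0.18, adjusted p = 0.453), Mmp14 had 10, 1 and 6 counts, and Adamts5 was at 10.3, 9.32 and 8.79 CPM (0.36, SE 0.27, adjusted p = 0.635).

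After 72 h with TNF the 2 inhibitors that rise during differentiation were lower than without it. Timp2 was at 185.2, 252.7 and 280.4 CPM against 420.9, 393.1 and 433 CPM, 1.74-fold lower (log2 fold change -0.8, SE 0.15, adjusted p = 0.00175). Timp3 was at 98.6, 95.5 and 89.0 CPM against 157, 180.2 and 161 CPM, 1.76-fold lower (-0.82, SE 0.13, adjusted p = 0.000283). The groups did not overlap for either gene. These 2 were the only calls among the 8 tested genes, where 5.21% of all tested genes were lower and 4.35% higher. Both stayed called without any 1 library and without replicate 1 of both TNF groups, where the log2 fold change was -0.66 for Timp2 and -0.86 for Timp3. With TNF, Timp3 stood at 85.5 ± 11.6 CPM at 24 h and 94.3 ± 4.91 at 72 h, near the 87.6 ± 14.9 CPM of NSPs (SD, n = 3). Several marker sums were apart in the same comparison. With TNF at 72 h the astrocyte markers summed to 3485 to 4887.5 CPM and without it to 5696.2 to 8144.7, the neural stem cell markers to 580.2 to 910.4 against 970.7 to 1373.2, and the endothelial markers to 1.8 to 3.07 against 5.68 to 6.87. The genes in each sum did not all move alike. Gfap (217 to 1022 CPM against 1855 to 3172), Gja1, S100b and Aldoc were lower with TNF. Aldh1l1 was higher (10.62 to 14.26 against 6.74 to 9.26), and Aqp4, Slc1a2 and Slc1a3 overlapped. Of the stem cell markers Nes was lower, Mki67 higher, and Sox2, Top2a and Prom1 overlapped. Of the endothelial markers Kdr alone was lower (0.28 to 1.75 against 4.84 to 6.32), and Pecam1 and Tek were higher. The oligodendrocyte lineage markers were on the other side, at 144.3 to 184.7 CPM with TNF against 82 to 91.7 without. The part of these differences in the TIMP levels was not tested.

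Mmp2 was above the untreated libraries in all 3 TNF libraries at 72 h, at 37.1, 17.3 and 20.0 CPM against 8.63, 10.6 and 8.75 CPM. The 2.66-fold difference was not called in the fit of all conditions (log2 fold change 1.41, SE 0.46, adjusted p = 0.0611). It was called in a fit of only the groups compared (1.45, adjusted p = 0.00901) and without replicate 1 of both TNF groups, a setting chosen after seeing the data (0.99, adjusted p = 0.0129). It was not called with any 1 library of the groups compared left out, 72 h TNF replicate 1 included (1.0, adjusted p = 0.255). Per length Mmp2 made up 20.2% ± 6.16 of MMP transcripts at 72 h with TNF and 8.11% ± 0.286 without (SD, n = 3). The markers of fibroblasts and meninges summed to 2.75 to 3.38 CPM in these TNF libraries and to 2.7 to 4.17 CPM without TNF.

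The other proteases gave no call at 72 h. Adamts1 was at 47.7, 44.5 and 48.2 CPM with TNF, all above the 30.7 to 39.4 CPM without (log2 fold change 0.43, SE 0.28, adjusted p = 0.359). Adamts5 was at 10.99, 10.1 and 8.57 CPM against 9.08, 5.71 and 5.89 CPM (0.53, SE 0.27, adjusted p = 0.23), and its groups overlapped. Mmp15 was at 54.5, 68.1 and 98.0 CPM (-0.15, SE 0.18, adjusted p = 0.64) and Mmp14 had 14, 5 and 5 counts. Timp4 was at 47.2, 84.8 and 89.2 CPM against 52.5 to 69.2 CPM without TNF, with replicate 1 below and the others above every untreated library. Its log2 fold change was 0.28 (SE 0.26, adjusted p = 0.54). It was 0.51 (adjusted p = 0.00763) without replicate 1 of both TNF groups, and 0.52 and not called (adjusted p = 0.272) without 72 h TNF replicate 1 alone.

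For Adamts20, the gene listed for its levels with TNF, the values at 24 h were 4.41, 5.07 and 4.72 CPM with TNF and 2.95, 2.46 and 2.61 CPM without. At 72 h they were 0.563, 6.73 and 7.2 CPM with TNF and 0.151, 0.061 and 0.275 CPM without. In counts these were 10, 116 and 115 against 2, 1 and 5. All 3 TNF libraries were above the untreated ones at both times. The 24 h TNF libraries were within a narrow range, whereas at 72 h replicate 1 was close to the untreated libraries and replicates 2 and 3 were not, so the level at 72 h rests on 2 of 3 libraries.

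**Figure D4:**
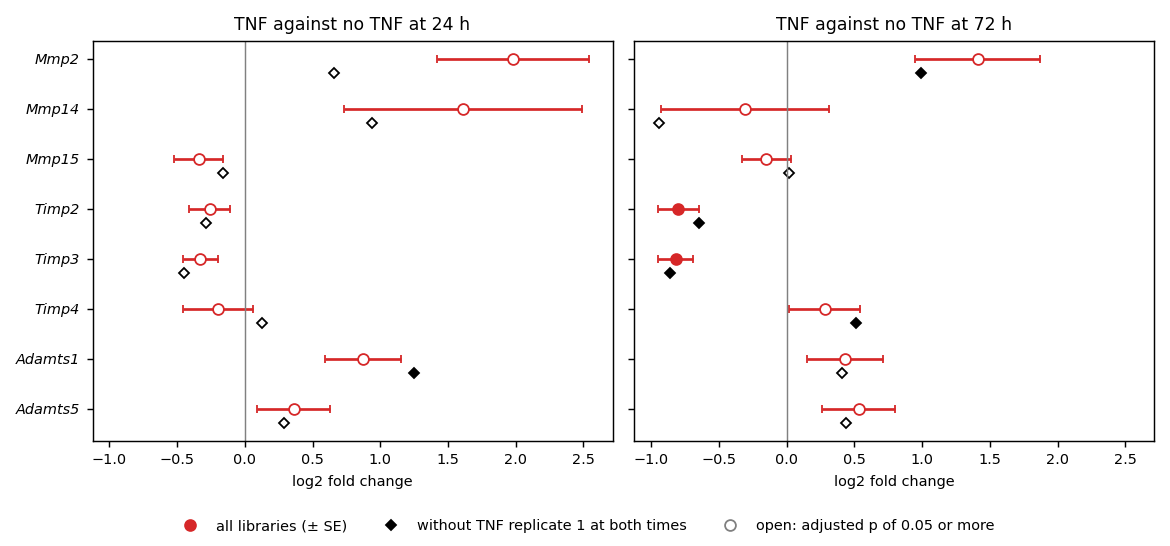
Log2 fold change of TNF against no TNF at 24 h (left) and 72 h (right) for the 8 tested genes, with all libraries (red circles, bars ± SE) and without replicate 1 of both TNF groups (black diamonds), where filled symbols have an adjusted p under 0.05. With all libraries the filled symbols are Timp2 and Timp3 at 72 h, and without replicate 1 Adamts1 at 24 h and Mmp2 and Timp4 at 72 h are filled as well.

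Replicate 1 of the TNF groups differed from replicates 2 and 3 in the same direction at both times for Mmp2 (12.5 CPM against a mean of 2.24 at 24 h, 37.1 against 18.6 at 72 h), for Timp4 (51.8 against 137.7 and 47.2 against 87 CPM) and for Mmp15 (52.2 against 81.1 and 54.5 against 83.1 CPM). Mmp14, Timp3 and Adamts5 were also higher in replicate 1 at both times. Markers differed with it. The smooth muscle actin gene Acta2, which carried most of the sum of 6 pericyte and smooth muscle markers, brought that sum to 96.4 CPM in replicate 1 and 529.8 and 496.2 CPM in replicates 2 and 3 at 24 h, and to 55.3 CPM against 188.7 and 204.2 CPM at 72 h. The 5 neural stem cell markers summed to 799.7 CPM in replicate 1 against 1147 and 1115.3 CPM at 24 h, and to 580.2 against 910.4 and 900.3 CPM at 72 h. The 8 astrocyte markers summed to 6198.9 CPM in replicate 1 against 4875.1 and 4941.2 CPM at 24 h, and to 4887.5 against 3846.8 and 3485 CPM at 72 h. Within these sums Nes was lower in replicate 1 at both times, and Sox2 was not below both others at either time. Gfap and Aqp4 were higher in replicate 1 at both times, and Slc1a3 was lower. The part of these markers in the values of the proteases and TIMPs was not tested.

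Between 24 h and 72 h in the presence of TNF, 1 of the 8 tested genes was higher and 1 lower, where 5.38% of all tested genes were higher and 7.93% lower. Mmp2 rose 4.36-fold (log2 fold change 2.12, SE 0.48, adjusted p = 0.00625), or by 3.04 on the log2 scale (adjusted p = 2.16e-06) without replicate 1 of both TNF groups and 3.49 (adjusted p = 3.77e-06) without 24 h TNF replicate 1. Adamts1 fell 3.07-fold (-1.62, SE 0.28, adjusted p = 0.00106). In a fit of only these 2 groups neither was called (adjusted p = 0.0972 and 0.0556). Timp2 was not called with all libraries (0.33, SE 0.15, adjusted p = 0.156) and was without 72 h TNF replicate 1 (0.52, adjusted p = 0.0247). Timp4 likewise was not called with all libraries (-0.56, SE 0.26, adjusted p = 0.175) and was without 24 h TNF replicate 1 (-0.86, adjusted p = 0.0034).

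Whether the effect of TNF differed between 24 h and 72 h was tested as an interaction. It called none of the 8 genes with edgeR's quasi-likelihood test, where 0.135% of all tested genes were called in the positive and 0.324% in the negative direction. Of the 8, 2 had an unadjusted p under 0.05, Timp2 (log2 difference of differences -0.53, SE 0.21, adjusted p = 0.393) and Timp3 (-0.49, SE 0.18, adjusted p = 0.313), and DESeq2 called 0. Over all genes, 2018 of 20067 had an unadjusted p under 0.05 in the interaction, and DESeq2 called 243. With neither gene called, the effect of TNF on Timp2 and Timp3 is not shown to differ between 24 h and 72 h.

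The wider protease families moved as follows, with lists chosen like the 10 genes with earlier results known. Among 14 tested other ADAMTS genes, the first 24 h brought 6 up and 5 down, beside 27.2% and 25.5% of all tested genes. Adamts16 rose by 5.95 on the log2 scale (SE 0.43, adjusted p = 4.38e-09), and Adamts4, an aggrecanase, fell by 1.76 (SE 0.21, adjusted p = 1.77e-06). With TNF at 72 h, 3 of the 14 were higher and 6 lower, beside 4.35% and 5.21% of all tested genes. Adamts2, which trims procollagen, was lower (-1.82, SE 0.25, adjusted p = 9.34e-05), and Adamts14 of the same subgroup was higher (1.99, SE 0.35, adjusted p = 0.00106). At 24 h with TNF, 2 of the 14 were lower, beside 1.32% of all tested genes, Adamts9 (-1.24, SE 0.16, adjusted p = 0.00016) and Adamts16 (-1.42, SE 0.3, adjusted p = 0.00978).

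Of 8 tested other MMPs, 1 was higher at 24 h with TNF, Mmp19 (1.03, SE 0.28, adjusted p = 0.0479), beside 2.18% of all tested genes. At 72 h with TNF 1 was higher, Mmp28 (1.37, SE 0.35, adjusted p = 0.0194), and 1 lower, Mmp24 (-1.12, SE 0.27, adjusted p = 0.0115), beside 4.35% and 5.21%. Mmp9, the other gelatinase, did not pass the filter. Among 14 tested activators and inhibitors, 1 was higher and 5 lower at 72 h with TNF, again beside 4.35% and 5.21% of all tested genes. The protease activator Plau (urokinase) was lower (-2.27, SE 0.28, adjusted p = 3.2e-05), and so was the broad protease inhibitor A2m (-1.64, SE 0.24, adjusted p = 0.000151), which at 24 h with TNF was higher (0.93, SE 0.24, adjusted p = 0.0329). A2m was the 1 gene of this list called in the interaction of TNF and time (-2.56, SE 0.33, adjusted p = 0.001), where 0.324% of all tested genes were called in that direction. For Timp1 the mean was 0.797 ± 0.386 CPM with TNF and 0.867 ± 0.269 without at 24 h, and 0.384 ± 0.303 CPM with TNF and 0.169 ± 0.0694 without at 72 h (SD, n = 3), and neither difference was called (log2 fold change -0.07, SE 0.52, adjusted p = 0.977, and 1.18, SE 0.73, adjusted p = 0.33).

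Of 16 tested matrix substrates of these enzymes, 1 rose and 9 fell between 24 h and 72 h without TNF, beside 12.2% and 12.6% of all tested genes, with a median log2 fold change of -1.3 against -0.01 for all tested genes. The proteoglycan neurocan (Ncan) fell by 5.12 (SE 0.38, adjusted p = 4.06e-08) and tenascin-R (Tnr) by 4.14 (SE 0.52, adjusted p = 1.32e-05), whereas the basement membrane protein Nid2 rose by 0.81 (SE 0.13, adjusted p = 0.000123). With TNF at 72 h, 2 were higher and 2 lower than without it, beside 4.35% and 5.21%. Versican (Vcan), a substrate linked to the 3 ADAMTS genes described here, was higher (1.04, SE 0.21, adjusted p = 0.00327), and reelin (Reln) was lower (-1.67, SE 0.22, adjusted p = 7.58e-05). The oligodendrocyte lineage markers summed to 375.4 to 455.2 CPM at 24 h, 82 to 91.7 at 72 h and 144.3 to 184.7 at 72 h with TNF, and their part in the substrate levels was not tested.

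Over the 18 libraries, the gene whose log2 CPM was most alike to that of each of the genes, among 16451 genes with a mean of at least 1 CPM, was Dnah9 for Timp2 (Pearson's r = 0.99), Sulf1 for Mmp2 (0.972), Phf1 for Mmp15 (0.97) and Acsl6 for Timp3 (0.97). It was Igfbp2 for Timp4 (0.946), Gm26857 for Adamts20 (0.931), Ext1 for Adamts1 (0.902), Angptl4 for Mmp14 (0.891) and Slc25a27 for Adamts5 (0.869). These are the highest of many correlations over libraries that share their conditions and are given as a description.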

How the data were processed

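RNA-sequencing counts of 18 libraries were analysed, 3 for each of 6 conditions, grouped by their labels. The authors depleted ribosomal RNA, prepared stranded paired-end libraries from RNA with quality numbers between 3.4 and 10, used FastQC for read quality, Trim Galore for trimming, STAR for alignment, SAMtools for sorting and featureCounts for counting per gene, and deposited the raw counts with no normalization. The submitters' processing notes name mm10, and how featureCounts treated strand and multiply assigned reads is not given in the sources used here. All columns were used. The column of 72 h replicate 3 carries another replicate number and was matched by its library index.

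Counts were tested with edgeR 4.0.16 (limma 3.58.1, R 4.3.3), with TMM factors, filterByExpr by condition, 1 quasi-likelihood fit over the 6 conditions and Benjamini-Hochberg adjustment over 20067 genes. The biological coefficient of variation was 0.18. SE is the size of the log2 fold change divided by the square root of F, and the prior count for log2 CPM was 2. GENCODE M21 (GRCm38) gave names, positions and the union of exons, and matched 54809 of 54838 identifiers. The test was checked on simulated counts. Limits from counts of 0 cover counting error only, since PCR copies were not marked and reads may repeat a molecule. No replicate pair agreed within sampling noise, with a chi-square per degree of freedom between 4.11 and 63.1.

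The genes, the lists and the promoter motifs were chosen with earlier results of these data known. The text names all 10 genes and Timp1, and for each list and comparison takes its examples from the 2 called genes that rose most and the 2 that fell most, given a mean of 1 CPM or more and groups that did not overlap. The plan allowed a test of Adamts20 in comparisons without TNF. It was narrowed to 1 week against NSPs because the other comparisons share libraries with the values that chose the gene.

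Alternatives were DESeq2 1.42.0, RLE normalization, at least 5 counts in total in place of the filter, a fit restricted to the groups compared, the length of the longest transcript for levels per length, a replicate block with 72 h replicate 3 paired or unpaired, and leaving out each library. Leaving out replicate 1 of both TNF groups was chosen after seeing the data. Deviations of same-numbered libraries from their group correlated at 0.291, 0.255 and 0.266 between 24 h TNF and 72 h TNF. In the other comparisons the correlations were not over 0.1 for every number. Deviations within a group of 3 libraries depend on each other, so replicate 1 lying apart in both TNF groups can raise all 3 correlations. These values therefore cannot decide whether the numbers pair the libraries.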

Additional observations from a re-analysis of the deposited data

How the results depend on the processing

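No call among the 10 genes and Timp1 changed direction under any alternative run, and 3 libraries per condition limit what could be called. The count of called genes changed by more than 1.5 times in 4 comparisons. From 72 h to 1 week the 1 call, Mmp14, became 0 with the replicate block that leaves 72 h replicate 3 unpaired and 2 in a fit of only the groups compared (Mmp15 and Timp4), and was 0 to 1 when single libraries were left out. At 24 h with TNF the count of 0 became 1 with DESeq2, with no filter on low counts (Mmp2 in both) and without replicate 1 of both TNF groups, and was 0 to 1 when single libraries were left out. At 72 h with TNF the count of 2 became 4 without replicate 1 of both TNF groups. Over all genes that fit called 831 higher and 964 lower of 20475, against 873 and 1046 of 20067 with all libraries. From 24 h TNF to 72 h TNF the count of 2 became 0 in a fit of only the 2 groups and 4 without replicate 1 of both. Over all genes these fits called 337 higher and 491 lower of 18253, and 1520 and 1938 of 20475, against 1079 and 1591 of 20067. The cause of the changes in count was not tested. The fits of only the groups compared and those that leave libraries out hold fewer libraries, and the others hold all 18.

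With the replicate block, which paired same-numbered libraries in every comparison, the 1 call lost was Mmp14 from 24 h to 72 h (2.29, adjusted p = 0.0629). That call was also lost with DESeq2 (adjusted p = 0.0692) and with no filter on low counts (0.0578). The counts of called genes in the other comparisons were within 1.5 times. With 72 h replicate 3 unpaired, Timp4 from 24 h to 72 h was lost as well (-0.86, adjusted p = 0.0504), and Timp1 in that step (-1.97, adjusted p = 0.122). Mmp14 rested on 0 to 15 counts per library and Mmp3 on 0 to 2, which limits what can be said of both.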
